A study of Homo sapiens with 18 samples.

Results

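The histone genes were followed through repeated stringent washing and a second staining of the same expression arrays. Members were the probe sets whose platform symbol field holds a symbol of the H1, H2A, H2B, H3 or H4 nomenclature, which applied to 105 of the 54675 probe sets and to 78 of the 21357 distinct symbols that the platform annotation lists. Of the probe sets, 69 named only replication-dependent genes, 30 named only variant genes, and 6 named a pseudogene or an antisense transcript (H2AC5P, H4C10P, H1-9P, H2BW4P with 2 probe sets, and H1-10-AS1). By type, 14 probe sets belonged to the linker histone H1, 30 to H2A, 23 to H2B, 20 to H3 and 16 to H4, and 2 held both H3 and H2A symbols.

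One RNA sample from untreated FTC133 cells, a follicular thyroid carcinoma line, was hybridized to 3 arrays of 1 chip design, and all groups share that sample. Array A was scanned after 0, 2, 7 and 17 additional wash cycles (scans A1 to A4), stained again and scanned at the same 4 steps (A5 to A8), which brought its total to 34 cycles. Array B had the same schedule (B1 to B8) with 2 extra cycles before each staining and a final total of 38, and array C was scanned once in each series, after 6 cycles (C1) and 12 cycles in total (C2). Scans of 1 array are repeated measurements of 1 hybridization, so all p-values below measure only the technical spread between 18 scans of 3 arrays. The deposited values are MAS5 signals, the summary of the matched and mismatched probes of a probe set, and their 2% trimmed mean lay between 250.02 and 250.06 on every scan, so that only changes relative to the other probe sets can be read.

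Replication-dependent histone genes lie in clusters, are transcribed in S phase together with DNA synthesis, and give mRNAs that end in a stem-loop in place of a poly(A) tail. Variant genes such as H2AZ1 and H3-3B stand alone, are transcribed through the cell cycle and give ordinary polyadenylated mRNAs. Several replication-dependent genes, H2BC12, H2BC5, H2AC6 and H2BC21 among them, are also known to give polyadenylated transcripts. The labelled cRNA was made from cDNA primed with oligo-dT, and its part in the levels below was not tested.

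Histone genes of 1 type are close copies, so their probe sets are often shared. Of the 78 symbols, 58 had at least 1 probe set of their own, with no other symbol listed, and 20 occurred only in shared ones. Several symbols were listed for 28 of the 105 probe sets (26.7%), against 1801 of all 54675 (3.29%). The suffix _x_at, which marks probes that also match other transcripts, was carried by 22 histone probe sets (21.0%), against 7.69% of all. A signal in a shared probe set cannot be assigned to 1 of its genes. All variant probe sets with several symbols were the 8 of the pair H3-3A and H3-3B, which encode the same H3.3 protein.

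The promoters of the types differ in their motifs, and 4 from genes described below are given here to show the motifs. The start regions of 67 of the 78 symbols were matched in RefSeq (GRCh38.p14), and the 250 bases before each start were searched on both strands for the TATAAA motif (the TATA box), the CCAAT motif and the octamer ATTTGCAT, which is known from H2B promoters. The octamer occurred in 13 of 16 replication-dependent H2B promoters and 8 of 13 of H2A, in 0 of 13 of H4, and in 1.63% of all 35116 promoters. CCAAT occurred in every replication-dependent H1, H2A, H2B and H3 promoter matched but in 3 of 13 of H4, which made 83.6% of the histone promoters against 32.0% of all, and TATAAA in 61.2% against 10.7%. No motif overlaps another in the letters shown. The 150 bases before each start follow, with the motifs in capitals on either strand. H2BC21 and H2BC12 are replication-dependent genes, and H2AZ1 and H3-3B are variants.
H2BC21, chr1:149886683-149886832, minus strand: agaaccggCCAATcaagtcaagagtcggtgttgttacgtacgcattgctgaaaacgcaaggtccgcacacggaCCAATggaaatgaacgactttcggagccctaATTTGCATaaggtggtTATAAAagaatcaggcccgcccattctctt
H2BC12, chr6:27146859-27147008, minus strand: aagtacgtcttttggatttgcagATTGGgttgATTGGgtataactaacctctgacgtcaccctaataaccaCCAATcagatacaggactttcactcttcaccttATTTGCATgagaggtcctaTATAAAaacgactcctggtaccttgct
H2AZ1, chr4:99950276-99950425, minus strand: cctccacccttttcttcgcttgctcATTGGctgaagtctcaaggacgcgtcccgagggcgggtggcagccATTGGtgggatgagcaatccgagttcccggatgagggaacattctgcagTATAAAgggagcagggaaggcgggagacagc
H3-3B, chr17:75779780-75779929, minus strand: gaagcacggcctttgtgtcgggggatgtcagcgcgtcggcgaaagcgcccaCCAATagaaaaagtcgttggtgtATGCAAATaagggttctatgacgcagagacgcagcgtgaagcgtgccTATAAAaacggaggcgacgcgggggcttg
The octamer began 46 bases before the start in both H2B promoters and 76 bases before it, on the opposite strand, in H3-3B. It is not in the window shown of H2AZ1.

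On scan C1, taken after 6 cycles and before the second staining, most variant probe sets were bright and the replication-dependent ones centred near the median of the array. The median signal was 679 over the 30 variant probe sets and 51.5 over the 69 replication-dependent ones, against 51.0 over all probe sets. The top decile of all probe sets held 16 histone probe sets, of which 13 were variants. The 6 pseudogene and antisense probe sets all lay below the median of all, with signals of 3.96 to 23.0. A signal depends on the probes as well as on the transcript, so these values describe probe sets and do not rank transcripts.

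**Figure D1:**
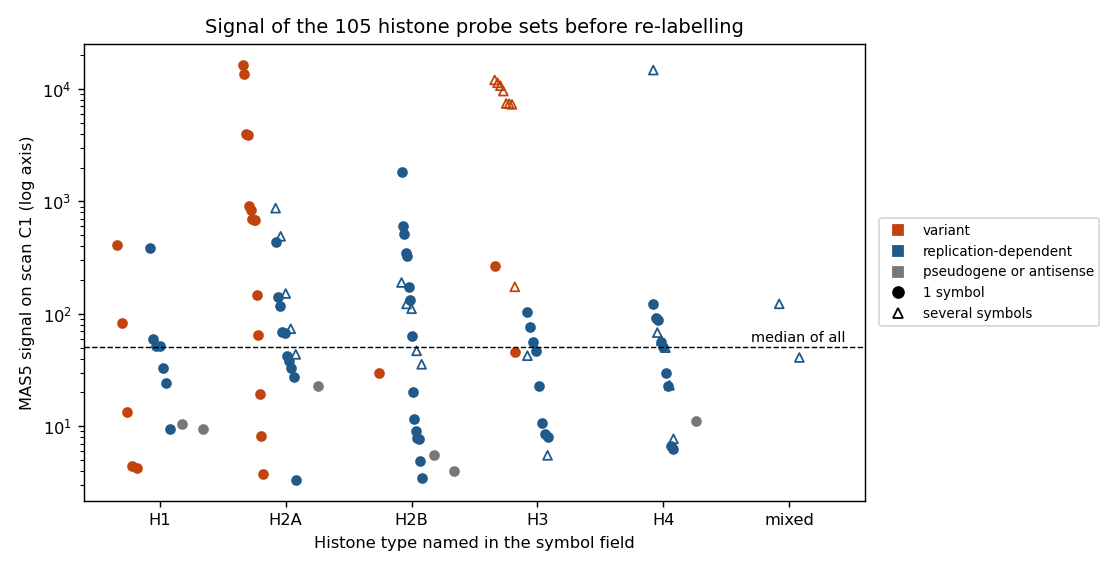
MAS5 signal on scan C1 (log axis) of the 105 histone probe sets by histone type; colours mark the class, filled circles probe sets with 1 symbol and open triangles those with several, and the dashed line is the median of all probe sets at 51.0. The H2AZ1 and H3-3 variant probe sets and 1 shared H4 probe set stand near the top, and most replication-dependent ones lie within an order of magnitude of the line.

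H2A.Z, the variant found at promoters and other regulatory regions, was reported by probe sets near the top of the range. The H2AZ1 probe set 200853_at had a C1 signal of 16435, rank 180 of all, and the other H2AZ1 probe set, 213911_s_at, had 13613. The 4 probe sets of its paralogue H2AZ2 had C1 signals of 697 to 3945. Of the H3.3 probe sets, which report the replacement H3 of transcribed chromatin, 7 shared ones had C1 signals of 7301 to 12032 and the remaining shared one, 211998_at, had 174. The H3-3A probe set with 1 symbol, 213826_s_at, had 269. The 8 shared H3-3 probe sets thus spanned 69.2-fold on 1 scan.

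Other variants were dimmer or were bright in only some of their probe sets. H2AX, the variant phosphorylated at DNA breaks, had 4 probe sets with C1 signals of 3.75 to 910. H2AJ, an H2A variant, had 4 with C1 signals of 8.16 to 679. H1-10, a linker histone variant, had a C1 signal of 410, while the germline linker histones were low: H1-7 had 3 probe sets between 4.23 and 83.3, and H1-8 had 13.4. H3-4, the testis form of H3, had 45.9, and H2BW2, a testis form of H2B, had 29.4.

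Replication-dependent genes with a probe set that lists no other symbol were read by type. The probe sets given here for H2BC12L, H2BC5, H2AC14, H2AC25 and H3C8 end in _x_at, so their signals may include other transcripts. H2BC12 (209806_at) had a C1 signal of 1815, rank 2703 of all, followed by H2BC12L with 609 and H2BC5 with 511. The H2A genes were led by H2AC6 with 440, H2AC14 with 141 and H2AC25 with 118. The H1 genes were led by H1-2, a somatic linker histone, with 388, and H1-1 and H1-3 followed with 59.6 and 52.0. The single-symbol probe sets of H3 and H4 stayed at or below 121: H3C8, H3C3 and H3C1 had C1 signals of 104, 76.0 and 56.4, and H4C8 had 121 and 90.8 in its 2 probe sets, with H4C4 at 88.4.

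The exception was 1 shared H4 probe set. Of the 5 probe sets that list the same 14 H4 genes, 205967_at had a C1 signal of 14735, rank 230 of all, and the other 4 had 68.0, 57.6, 23.1 and 7.72. The accession given for 205967_at is that of H4C3. The 3 probe sets of H2AC18 and H2AC19, paralogues in the chromosome 1 cluster, spanned 43.6 to 870, and the 3 of H2BC4, H2BC6, H2BC7, H2BC8 and H2BC10 spanned 111 to 190.

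Washing in the first series asked how 17 additional cycles changed each signal relative to all probe sets. No histone probe set passed an adjusted p of 0.05 (limma, array as a block, 8 scans), and none of all probe sets did (0%). At an unadjusted p below 0.05, 11 histone probe sets were higher and 16 lower after 17 cycles, against 3.5% and 13.9% of all probe sets in these directions. The counts were 13 and 7 after median centring, and 3 and 6 after quantile normalization. The shares of all hold for the deposited scale only and were not counted after rescaling, so these counts cannot be set against them. The 11 were 10 variant probe sets of H2AZ1, H2AZ2 and H3-3 and the bright H4 probe set. The 16 were 12 replication-dependent, 3 variant and 1 pseudogene probe set.

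On both arrays the bright variant probe sets named here had a higher signal after each step of the first series, on the deposited scale. H2AZ1 (200853_at) had signals of 6182, 10762, 14345 and 17615 on A1 to A4, and of 12337, 17996, 23672 and 29375 on B1 to B4. The last scan was above the first by 2.85-fold on array A and 2.38-fold on array B. The fitted log2 difference of 17 minus 0 cycles was 1.38 ± 0.27 (SE, adjusted p = 0.19). The H3-3 probe set 213828_x_at had 6510, 9619, 12487 and 16022 on A1 to A4 and 11633, 15690, 21190 and 24191 on B1 to B4, with a difference of 1.18 ± 0.27 (SE, adjusted p = 0.20). All 7 bright shared H3-3 probe sets had higher signals on A4 than on A1 and on B4 than on B1. H2AZ2 (202487_s_at) had 1668, 2588, 3038 and 3426 on A1 to A4 and 2980, 3720, 4303 and 4609 on B1 to B4.

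These gains rested on the scaling of the scans. Over the 2 H2AZ1 and 7 bright H3-3 probe sets the fitted differences were 0.77 to 1.38 on the deposited scale and 1.23 to 1.84 after median centring, all 9 above 0, but -0.43 to 0.13 after quantile normalization, with 5 of 9 above 0. Quantile normalization gives each scan the same set of values, so that only a change of rank remains. For H2AZ1 (200853_at) it left 0.042, and for the H3-3 probe set 213828_x_at it turned the sign, to -0.12. Without scan A1 the H2AZ1 difference was 1.25 on the deposited scale.

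The median of the log2 changes of all probe sets over the 17 cycles was -0.61 (array A) and -0.27 (array B). Set against it, the 30 variant probe sets had a median change of 1.05 (array A) and 0.47 (array B). The 69 replication-dependent ones had medians of -0.03 and 0.04. Both arrays had a change above the median of all for 19 of the 30 variant and 20 of the 69 replication-dependent probe sets, against 14949 of all 54675. Brightness moved with this result, and its part was not tested further. In the top decile on C1 the 16 histone probe sets all lay above 0 on both arrays on the deposited scale. Their medians were 1.76 (array A) and 1.24 (array B), against 1.25 and 0.47 over all 5468 probe sets of that decile. The median C1 signal was 7413 over these 16 and 1794 over the whole decile, so a decile does not fully match brightness. Set against the probe sets of the same decile, the variant medians were 0.39 (array A) and 0.39 (array B), and the replication-dependent ones 0.10 and 0.05.

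**Figure D2:**
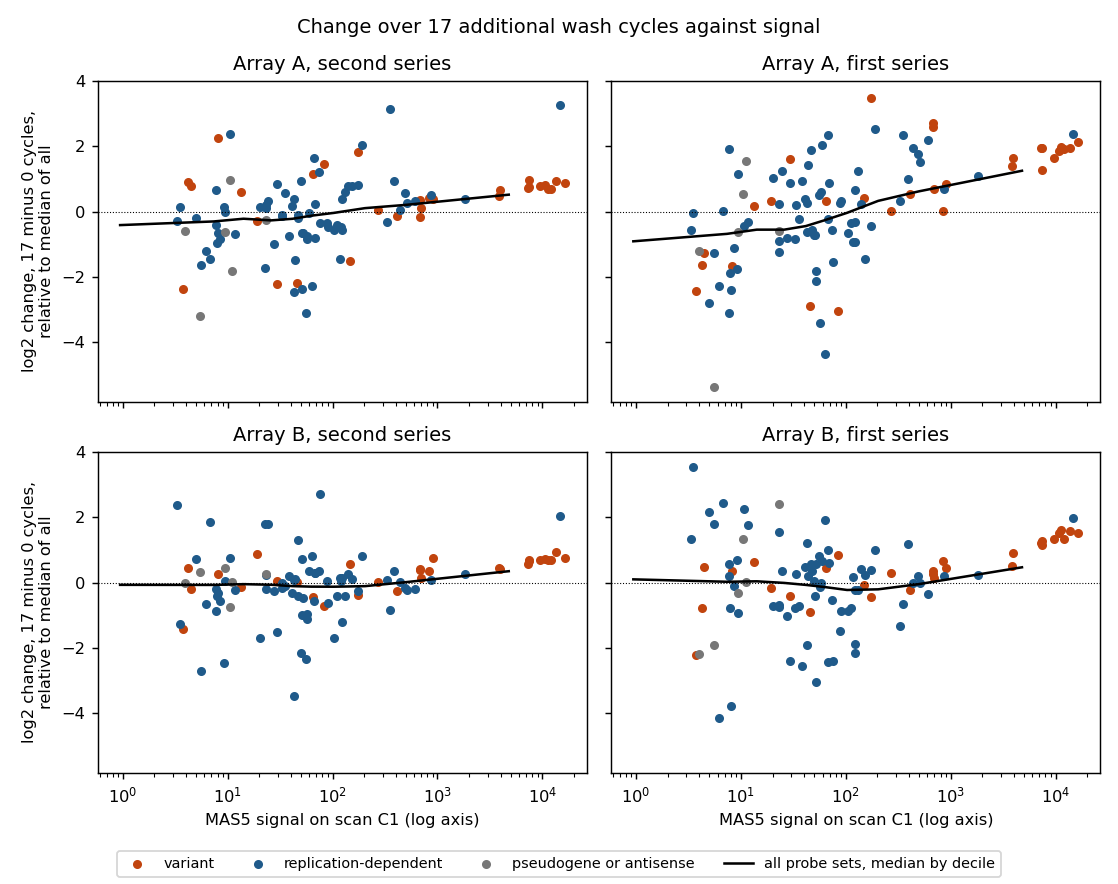
Change of the 105 histone probe sets over 17 additional wash cycles (log2, 17 minus 0 cycles, relative to the median of the array) against the signal on scan C1 (log axis), for arrays A and B in the second and the first series; colours mark the class and the black line joins the medians of all probe sets by decile of C1 signal. The 16 histone probe sets of the top decile all lie above 0 on both arrays in the first series, on the deposited scale; quantile normalization left only 5 of the 9 bright H2AZ1 and H3-3 probe sets above 0.

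With a variance trend and robust moderation, which lets the spread depend on brightness, on the deposited scale, 12 histone probe sets rose (11.4%, against 3.57% of all) and 1 fell (0.952%, against 1.21% of all). Those that rose were both H2AZ1 probe sets, 7 shared H3-3 probe sets, 2 of H2AZ2 and the bright H4 probe set. H2AZ1 (200853_at) then had an adjusted p of 8.75e-08 in limma, with the difference of 0.042 after quantile normalization noted above. The H4 probe set 205967_at had a difference of 1.74 ± 0.26 (SE, adjusted p = 0.19, or 5.97e-09 with the trend), and 0.39 after quantile normalization. The probe set that fell was that of H1-3, a somatic linker histone, with 166, 126, 48.3 and 25.1 on A1 to A4 and 74.0, 42.0, 26.5 and 7.51 on B1 to B4, a fitted difference of -3.01 ± 0.34 (SE, adjusted p = 0.049 in that limma fit and 0.19 without the trend).

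The furthest changes of single members followed no common pattern. Among histone probe sets with a C1 signal above the median of all, the lowest change on array A was that of H2BC15, a cluster H2B gene, with 366, 134, 26.8 and 11.7 on A1 to A4 but 3.98, 16.3, 26.3 and 12.5 on B1 to B4. The highest on array A was that of the H3-3 probe set 211998_at, with 196 on A4 against 26.6 on A1 and relative changes of 3.49 on array A and -0.43 on array B. On array B the lowest was H1-3 (-3.03) and the highest the bright H4 probe set (1.99), and both had changes of the same sign on array A.

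The 10 probe sets of replication-dependent H3 genes, which encode the H3 deposited at replication forks, had a median relative change of -1.17 on array A, where 1 of 10 lay above the median of all, and of -0.13 on array B, where 4 did. H3C3 (208577_at) had 33, 9.26, 8.70 and 7.42 on A1 to A4 and 73.1, 45.2, 27.7 and 11.6 on B1 to B4. H3C2 (208576_s_at) had 244, 60.2, 62.4 and 67.9 on A1 to A4 and 30.5, 4.93, 12.1 and 15.0 on B1 to B4. H4C4 (208076_at), a cluster H4 gene, had 134, 111, 107 and 106 on A1 to A4 and 51.4, 68.3, 23.3 and 15.4 on B1 to B4. In all 3 the first scan of array A was the highest of that array, and on array B the 17-cycle scan lay below the 0-cycle scan. Without scan A1 the median change of the 105 probe sets relative to all was 0.14, and without B1 it was 0.15, against 0.27 with both.

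Scan A1, the only one with no wash cycle, stood apart for several histone probe sets whose probes match other transcripts. H2AJ (225245_x_at) had 121, 602, 490 and 518 on A1 to A4, and 562, 572, 531 and 566 on B1 to B4. H2BC12L (208579_x_at) had 93.5 on A1 and 365, 314 and 282 on A2 to A4, while B1 to B4 gave 515, 454, 369 and 335. H2AC6 (215071_s_at) had 126 on A1 and between 302 and 360 on A2 to A4. The change between A1 and A2 had a median of 0.54 over the 22 histone _x_at probe sets and -0.13 over all _x_at probe sets. Between B1 and B2 the medians were -0.08 and 0.01. These sets were not matched for brightness, with median C1 signals of 260 and 83.4. Background levels were not analysed here, and their part in the low A1 values was not tested. H1-10 had 164, 90.8, 9.13 and 157 on A1 to A4, with A3 far below the scans before and after it.

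H2BC12, the brightest replication-dependent gene with its own probe set, had a nearly level course on array B. It had 1259, 1504, 1663 and 1760 on A1 to A4 and 1830, 1781, 1829 and 1784 on B1 to B4, with a fitted difference of 0.22 ± 0.29 (SE, adjusted p = 0.70). On array B all 4 values lay within 1781 to 1830, and on array A the lowest value was that of A1.

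In the second series the same washing was repeated after re-staining, and no probe set passed the adjusted p in limma, histone or other (0%). At an unadjusted p below 0.05, 8 histone probe sets were higher and 6 lower, against 2.55% and 11.6% of all on the deposited scale. The counts were 15 and 5 after median centring, and 3 and 5 after quantile normalization, where the shares of all were not counted. With the variance trend, on the deposited scale, 9 rose (8.57%, against 2.38% of all) and 1 fell (0.952%, against 0.448%). The 9 were both H2AZ1 probe sets and the 7 bright shared H3-3 ones, and the one that fell was H4C7, with 102, 22.2, 22.0 and 9.72 on A5 to A8 and 79.3, 44.8, 51.6 and 13.6 on B5 to B8. H2AZ1 (200853_at) had 11480, 14398, 16674 and 17570 on A5 to A8 and 17843, 20522, 26136 and 25765 on B5 to B8. Its fitted difference was 0.57 ± 0.17 (SE, adjusted p = 0.33, or 0.000743 with the trend), and -0.059 after quantile normalization, which left 1 of the 9 bright H2AZ1 and H3-3 probe sets above 0.

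The next comparison asked whether the change with washing differed between the series. The second series began at 17 total cycles on array A and 21 on array B, against 0 and 2 in the first. The second staining and the washing already done cannot be told apart in this comparison. For the difference between the 2 series, second minus first, no probe set passed the adjusted p in limma (0%), with 3 histone probe sets higher and 6 lower at an unadjusted p below 0.05, against 3.55% and 1.66% of all. With the variance trend 7 histone probe sets had a lower gain (6.67%, against 0.583% of all) and 0 a higher one (0.0146% of all). They were both H2AZ1 probe sets and 5 shared H3-3 ones, with differences of -0.90 to -0.55 in log2 on the deposited scale; after quantile normalization the 9 bright probe sets ranged from -0.27 to 0.43, with 3 above 0. For H2AZ1 (200853_at) the difference was -0.81 ± 0.31 (SE, adjusted p = 0.95, or 0.015 with the trend). The median change of all 30 variant probe sets relative to all was 0.67 (array A) and 0.41 (array B) in the second series, against 1.05 and 0.47 in the first.

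**Figure D3:**
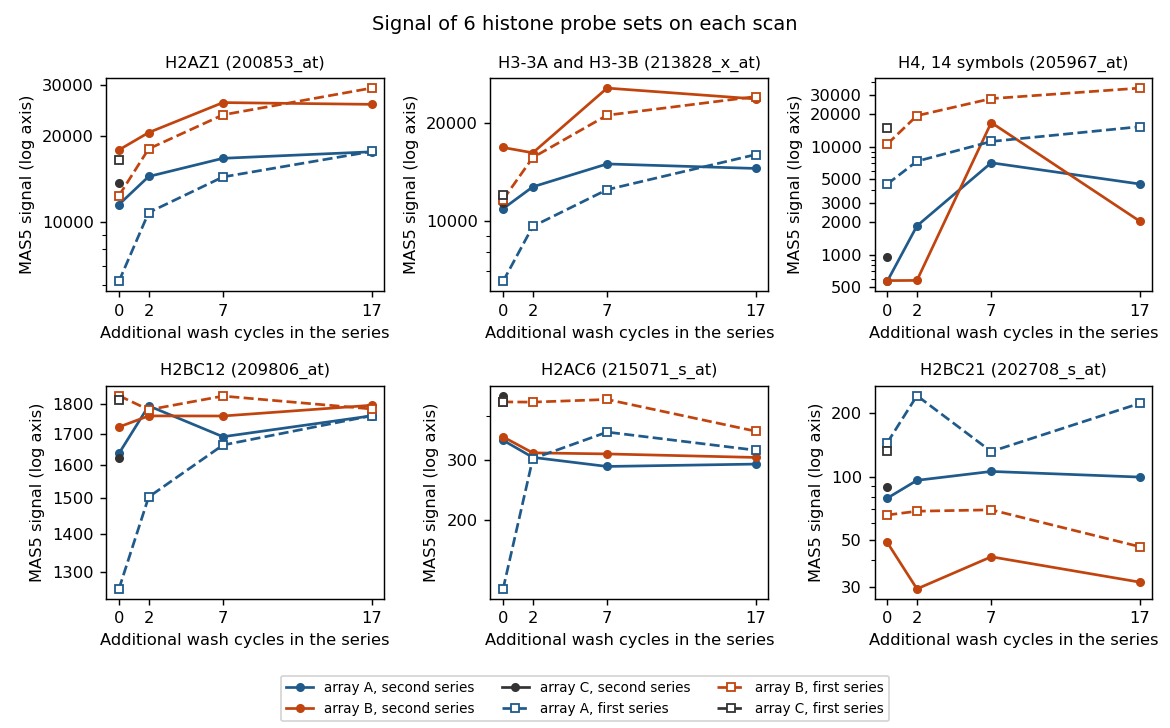
MAS5 signal (log axis) of 6 histone probe sets against the additional wash cycles in the series; filled circles with solid lines are the second series, open squares with dashed lines the first, and colours mark arrays A, B and C. H2AZ1 and H3-3 were higher after 17 cycles than after 0 on both arrays on this deposited scale. Quantile normalization turned the fitted sign of this H3-3 probe set in both series and of H2AZ1 in the second. The shared H4 probe set dropped to 567 on A5 and 575 on B5, and H2BC21 lay lower in the second series in every pair.

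Re-labelling compared the second with the first series at equal additional cycles, in 9 pairs of scans. The second scan of each pair had more cycles in total, such as 17 against 0 for A5 and A1. For B5 and B1 the totals were 21 and 2, and for C2 and C1 they were 12 and 6. Re-labelling and this added washing cannot be told apart in these pairs. In limma with the pair as a block, 3 histone probe sets were lower (2.86%, against 0.541% of all) and 0 higher (0.294% of all). After median centring 3 were lower and 1 higher (0.995% of all called), and after quantile normalization 3 lower and 2 higher (1.05% of all called). At an unadjusted p below 0.05, 11 were lower and 13 higher, against 11.3% and 8.34% of all on the deposited scale. After quantile normalization 7 were lower and 13 higher, where the shares of all were not counted. The log2 difference had a median of 0.10 over the histone probe sets and -0.02 over all. The pairs come from 3 arrays only: with each array averaged first, no histone probe set passed in limma, and leaving out array A or array B also left 0.

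Of the 3 probe sets that fell, the bright H4 probe set, 205967_at, had the largest difference. It had signals of 567, 1847, 7090 and 4510 on A5 to A8, against 4504, 7323, 11173 and 15304 on A1 to A4. On array B it had 575, 578, 16710 and 2041 on B5 to B8, against 10560, 19362, 27848 and 34851 on B1 to B4, and on array C it had 944 on C2 against 14735 on C1. Every second scan was lower than its partner, with array C alone differing 15.6-fold. Within the second series the values did not follow the wash cycles, since A7 and B7 lay above the scans before and after them. The fitted difference was -2.83 ± 0.49 (SE, adjusted p = 0.039). The call was lost when any 1 pair was left out, with a limma adjusted p from just above 0.050 to 0.079.

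Few probe sets of that brightness did the same. Of the 414 probe sets with a C1 signal above 10000, 10 fell by more than 1 in log2 between the series, 3 fell at least as far as 205967_at, itself included, and the median was 0.01. The H2AZ1 probe sets of like signal had differences of 0.22 ± 0.14 and 0.00 ± 0.12 (SE), and the other 4 probe sets of the same 14 H4 genes had -0.79 to 1.14. Raw intensities were not analysed here, and the part of detector saturation was not tested.

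H2BC21, a cluster H2B gene, was lower in the second series on every pair. It had 78.9, 95.9, 106 and 99.4 on A5 to A8, against 145, 242, 131 and 223 on A1 to A4. Array B gave 48.7, 29.3, 41.6 and 31.5 on B5 to B8, against 65.7, 68.5, 69.5 and 46.4 on B1 to B4, and array C gave 89.1 on C2 against 132 on C1. On arrays A and B the ranges of the 2 series did not overlap except for B5 with 48.7 and B4 with 46.4. The fitted difference was -0.80 ± 0.14 (SE, adjusted p = 0.040), and the call was lost when any pair of array A or B was left out (limma adjusted p of 0.063 to 0.092).

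The pseudogene H2AC5P had 27.1, 10.4, 19.2 and 18.8 on A5 to A8, against 363, 176, 155 and 157 on A1 to A4. Array B gave 7.44, 10.2, 8.82 and 7.73 on B5 to B8, against 16.3, 37.1, 47.7 and 71.9 on B1 to B4, and array C gave 7.24 on C2 against 23.0 on C1. The ranges of the 2 series did not overlap within any array. The difference was -2.69 ± 0.31 (SE, adjusted p = 0.019), and it held in 8 of the 9 fits that left out a pair. All second-series signals were 27.1 or lower, and with 16 added to each signal before the log2 the difference was -1.79.

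The other 102 histone probe sets did not pass. The H2BC4 probe set 236193_at had 81.8, 106, 119 and 74.2 on A5 to A8, against 39.8, 29.8, 6.96 and 53.3 on A1 to A4. On array B it had 74.1, 41.0, 43.6 and 19.9 on B5 to B8, against 7.17, 25.8, 2.64 and 3.59 on B1 to B4, and on array C 51.0 on C2 against 20.3 on C1. It lay higher in the second series in every pair, with a difference of 2.15 ± 0.43 (SE, adjusted p = 0.053), and passed after median centring and quantile normalization. H1-10 was also higher in every pair. On array A it had 284, 286, 260 and 216 on A5 to A8, against 164, 90.8, 9.13 and 157 on A1 to A4. Its log2 differences by pair were 0.46 to 4.83 on array A, but only 0.04 to 0.13 on array B and 0.04 on array C. The fitted difference was 0.91 ± 0.48 (SE, adjusted p = 0.32 in limma). H2BC12 had a difference of 0.04 ± 0.10 (SE, adjusted p = 0.87).

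**Figure D4:**
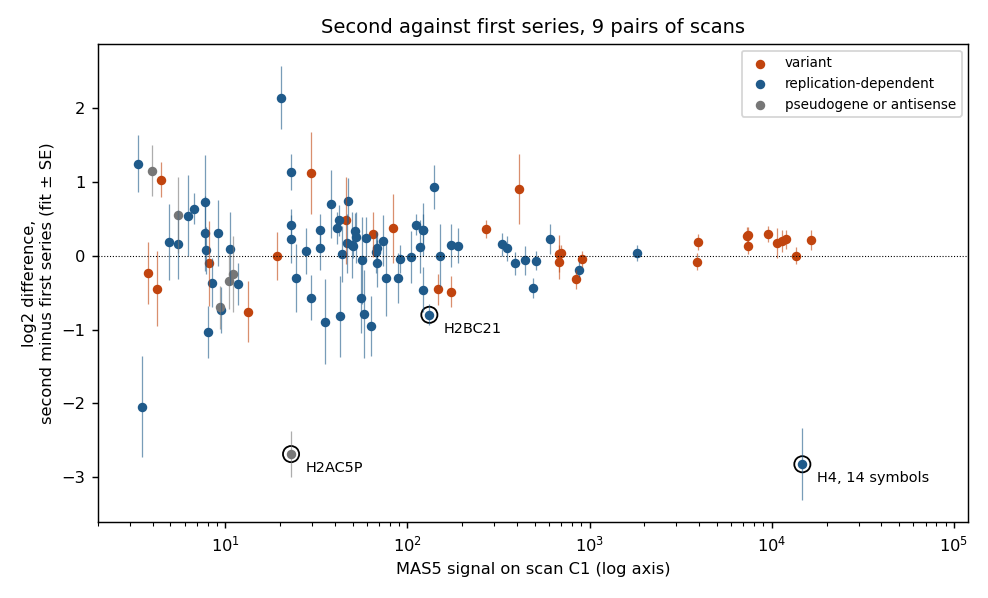
Log2 difference of the second minus the first series (fitted over 9 pairs of scans, bars ± SE) of the 105 histone probe sets against the signal on scan C1 (log axis); colours mark the class and circles the 3 probe sets past an adjusted p of 0.05. The shared H4 probe set lies at -2.83, while the H2AZ1 probe sets of like signal lie at 0.22 and 0.00.

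Genes that act on histones were measured by the same arrays and gave a wider view of the pathway, each by its brightest probe set with 1 symbol. The 16 genes of histone mRNA transcription and 3' processing had a median C1 signal of 1152. SLBP, which binds the stem-loop of the replication-dependent mRNAs, had 2819, and NPAT, their cyclin-dependent coactivator, had 532. The brightest were SNRPG, SNRPB and SNRPE, Sm proteins shared with the splicing snRNPs, at 8618, 8364 and 7761. For SNRPG the signal was 9592 on A4 against 3609 on A1 and 15620 on B4 against 7942 on B1. With the variance trend 4 of the 16 rose over 17 cycles in the first series and 0 fell, against 3.57% and 1.21% of all probe sets. The 4 were the Sm proteins SNRPB, SNRPD3, SNRPE and SNRPG. SLBP and NPAT did not pass (limma adjusted p of 0.19 and 0.26 with the trend). All 4 Sm genes stayed above 0 after quantile normalization, at 0.067 to 0.45.

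The 20 histone chaperones had a median C1 signal of 1256. The brightest were NPM1 with 17976, SET with 13367 and NAP1L1 with 7177, and ASF1A and ASF1B, which hand H3 and H4 to other chaperones, had 1322 and 1321. For NPM1 the signal was 20557 on A4 against 7644 on A1 and 39447 on B4 against 15769 on B1. With the variance trend 8 of the 20 rose and 0 fell in the first series, against the same 3.57% and 1.21% of all. Of the 8, 5 stayed above 0 after quantile normalization. In both lists each gene was read by its brightest probe set, and the shares of all were not matched for brightness. The median change relative to all was 1.42 (array A) and 0.43 (array B), and 1.09 and 0.33 in the mRNA-processing genes, beside the 1.25 and 0.47 of all probe sets in the top decile. In neither list did a gene pass at an adjusted p of 0.05 in the 4 limma tests without the trend.

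A further list of histone genes held 6 symbols, of which 3 matched a probe set of their own. H2BU1, H2BS1 and H4-16 matched none under those symbols, which does not mean that these genes were unmeasured. MACROH2A1, the variant of silent chromatin, had 6768 on C1, CENPA, the centromeric H3, had 242, and MACROH2A2 had 87.7. MACROH2A1 had 7477 on A4 against 2969 on A1 and 11811 on B4 against 6200 on B1.

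The cell line's label was checked on thyroid genes. PAX8 and NKX2-1, thyroid transcription factors, had C1 signals of 757 and 766, and HHEX (176) and SLC5A5 (87.7), the iodide transporter, also lay above the median of all probe sets. FOXE1 (39.9), TG (40.7) and TSHR (38.9), the thyroglobulin and thyrotropin receptor genes among them, lay below it. Markers of other cells (PTPRC, CD3E, HBB, ALB, MYH7, SYN1 and PECAM1) had C1 signals of 9.60 to 111.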

How the data were processed

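The deposited table holds MAS5 signal values, which the authors computed per scan from an Affymetrix chip and scaled to a common trimmed mean; the version is not given in the sources used here. Probe sets were named from the platform annotation. No offset or filter was applied, and log2 signals of all 54675 probe sets were fitted with limma 3.58.1 in R 4.3.3, with p-values adjusted by the Benjamini-Hochberg method over all of them. Washing was fitted as a factor with the array as a block, and re-labelling with the pair of scans as a block. The array letters pair the scans because they name 1 physical array, and deviations of 1 array correlated between steps (r of 0.35 to 0.56 in the first and 0.56 to 0.77 in the second series). The members, lists and classes were chosen with earlier results of these data known. H2AC25, which was first listed with the variants under its former symbol H2AW, was counted by its present symbol with the replication-dependent genes, and pseudogenes and the antisense transcript were kept apart. The probe sets named were the brightest on scan C1 by histone type, the brightest shared ones, those past the threshold, those with the largest changes, and genes with several probe sets; other genes were named by list. Scripts were tested on simulated data. Alternatives covered scaling, an offset of 16, brightness, the variance trend, the block and left-out scans. Depth does not apply to arrays, and their number limits the precision.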

Additional observations from a re-analysis of the deposited data

How the results depend on the processing

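In the fits of washing in the first series, 6 histone probe sets passed among the brighter 27337 probe sets, 13 with the variance trend and robust moderation, and 10 with a line in log10 of 1 plus total cycles, against 0 in the fit as reported. Of all probe sets fitted, 2.62%, 4.78% and 3.35% passed under these settings. In the second series 10 passed with the trend (2.83% of all), and for the difference between series 7 (0.598% of all). Median centring, quantile normalization, the offset, the fit without the array block (0 called) and every left-out scan (0 to 0) gave 0 in all 3 washing tests. Quantile normalization turned the difference of the H3-3 probe set 213828_x_at to -0.12 in the first series and -0.19 in the second. It turned that of H2AZ1 (200853_at) to -0.059 in the second. For re-labelling, 5 passed after quantile normalization (1.05% of all), 5 with the offset (1.77%), 7 with the trend (3.35%), 1 without the pair block (0.225%), 0 with the array as the unit, 0 without array A and 0 without array B, and between 0 and 2 when 1 pair was left out, against 3 as reported (0.836%); the cause was not tested. The median first-series change of the histone probe sets relative to all was 0.27, and it was 0.12 over the 77 with 1 symbol, 0.16 with 1 probe set per gene, 0.18 without _x_at probe sets and 0.20 against probe sets of the same decile. Without scan A1 it was 0.14. The precision is limited by 3 arrays of 1 RNA sample, by dim probe sets whose arrays disagreed, and by shared probes.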
